A study of Mus musculus with 9 samples.

Results

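Amino acid transporter genes of the stress response were followed through bulk RNA sequencing of the mouse left ventricle. The group holds 9 genes out of 52636 in the table, *Slc7a11*, *Slc7a5*, *Slc7a1*, *Slc3a2*, *Slc38a1*, *Slc38a2*, *Slc1a4*, *Slc1a5* and *Slc6a9*, and all 9 were among the 16322 genes that passed the low-count filter. The genes were chosen by name, with earlier results of these libraries already known, and the libraries set beside each other were selected on a measured value, the level of *Vdac2*. Libraries 1, 5, 7 and 9 had *Vdac2* under 100 CPM (counts per 1e6, scaled by the TMM-normalized library size), and libraries 2, 4, 6 and 8 had it over 300 CPM. Values on either side of *Vdac2* are therefore a description, without a test and without a genotype assigned to any library.

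The mice were C57BL6J animals of 16 weeks. The label KO stands for *Vdac2* flox/flox mice carrying an αMHC-Cre transgene, which removes VDAC2, a porin of the outer mitochondrial membrane, from cardiac myocytes and leaves it in the other cells of the heart. The label WT stands for littermates with the floxed allele or the Cre alone, and animals of either sex were used. Libraries 1 to 5 were labelled WT and libraries 6 to 9 were labelled KO, all labelled WT came from flow cell lane 1 and all labelled KO from lane 2, and total counts ran from 27345052 to 44673988.

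*Vdac2*, the targeted gene, did not follow the labels. It measured 20.2, 366, 58.5, 365 and 21.3 CPM across libraries 1 to 5, labelled WT, and 384, 20.5, 421 and 19.1 CPM across libraries 6 to 9, labelled KO. Each label thus holds libraries with a high and with a low level, and the labels are quoted as deposited throughout. Library 3, labelled WT, also had *Vdac2* under 100 CPM, but it stood apart. It is shown on its own and is not counted among the libraries with low *Vdac2*. Its TMM factor was 1.30, where the others ranged from 0.932 to 1.01, and its summed level over 8 cardiomyocyte markers was 15436 CPM, whereas the others held 53509 to 73333 CPM. In the other 8 libraries the myosin gene *Myh6* ran from 15806 to 24713 CPM, and the atrial light chain gene *Myl7* reached at most 1.13 CPM in any of the 9.

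Cells starved of amino acids, or with stressed mitochondria or endoplasmic reticulum, phosphorylate eIF2α, which favours translation of the transcription factor ATF4. ATF4 acts with C/EBP partners at short composite elements (CARE) and is known to raise genes for amino acid synthesis and for the carriers that bring amino acids into the cell. *Slc7a11* encodes xCT, which takes up cystine in exchange for glutamate and feeds glutathione synthesis. *Slc7a5* encodes LAT1, the carrier of large neutral amino acids, and *Slc3a2* encodes the heavy chain (4F2hc, CD98) that both xCT and LAT1 need to reach the plasma membrane. *Slc7a1* encodes the cationic amino acid carrier CAT1. *Slc38a1* and *Slc38a2* encode the sodium-coupled glutamine carriers SNAT1 and SNAT2, *Slc1a4* and *Slc1a5* the neutral amino acid exchangers ASCT1 and ASCT2, and *Slc6a9* the glycine carrier GlyT1.

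RefSeq promoter windows of GRCm38.p6, 250 bases before to 50 bases after a start, were matched for 6 of the 9 genes, *Slc7a11*, *Slc6a9*, *Slc7a1*, *Slc1a4*, *Slc38a2* and *Slc3a2*, with 9 windows in all. *Slc7a5*, *Slc38a1* and *Slc1a5* were not matched. The letters TGATGNAA, the core of the CARE, were searched on both strands and occurred in 2 of the 9 windows, those of *Slc7a11* and *Slc1a4*, against 3.97% of all 32851 windows. *Slc7a11* held the core as a pair, on opposite strands, with first bases at -66 and -47 from the start. In *Slc1a4* it lay across the start, with its first base at -4. These sequences are shown because the core stands at the start of a cystine and of a neutral amino acid carrier gene. They run 5′ to 3′ along the gene, on the minus strand, with the core in capitals.
*Slc7a11*, chr3:50443614-50443763: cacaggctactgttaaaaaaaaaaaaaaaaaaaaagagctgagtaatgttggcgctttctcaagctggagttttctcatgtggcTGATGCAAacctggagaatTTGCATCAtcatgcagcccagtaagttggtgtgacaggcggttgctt
*Slc1a4*, chr11:20332710-20332739: agcctccagcgtgcctcctgcgTTGCATCA
The antioxidant response core, TGACNNNGC on either strand, occurred in 4 of the 9 windows (2 of *Slc6a9*, 1 of *Slc7a1* and 1 of *Slc38a2*) against 12.4% of all windows, and overlapped no CARE core. A match is a description of letters, and no binding was measured here.

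Of the 9 transporters, 4 were higher in every library with *Vdac2* under 100 CPM than in every library with *Vdac2* over 300 CPM. They were *Slc7a5*, *Slc3a2*, *Slc38a1* and *Slc1a4*. With library 3 left aside, 7.16% of all tested genes had this pattern. The opposite pattern was seen in 0 of the 9 and in 4.93% of all tested genes. These shares of all genes were 11.3% and 2.65% with scaling by total counts, and 4.19% and 2.75% without the low-count filter. With library 3 counted on the low side they were 5.98% and 4.41%. In each case the same 4 transporters were separate. The other 5 transporters overlapped. Without library 9, *Slc7a11*, *Slc7a1* and *Slc6a9* were separate too, making 7 of the 9 against 9.55% of all tested genes, and without library 4 *Slc7a11* was, making 5 of the 9 against 9.06%. Library 3 had the highest level of the 9 libraries for 8 of the 9 transporters, the exception being *Slc7a1*, and for 37.7% of all tested genes.

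**Figure D1:**
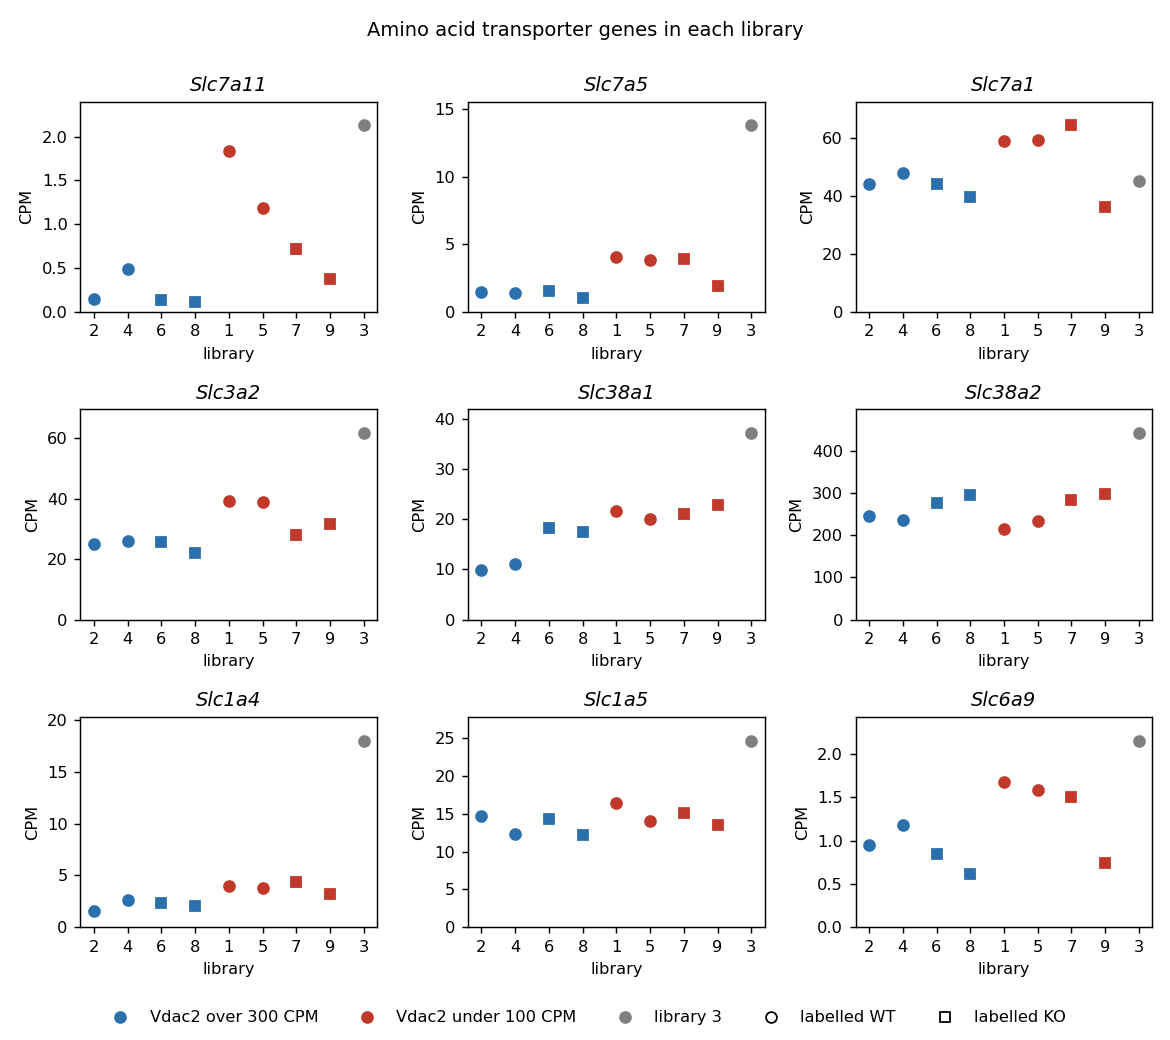
CPM (vertical axis, from 0) of each transporter gene in each library (horizontal axis, library number), with circles for libraries labelled WT, squares for those labelled KO and colours for the level of *Vdac2*. For *Slc7a5* the red points lie between 1.89 and 4.07 CPM, all above the blue points, and library 3, in grey, is at 13.8 CPM.

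The light chain gene *Slc7a5* was separate between the sides of *Vdac2*. *Slc7a5* (ENSMUSG00000040010, GRCm38 chromosome 8, 121881150 to 121907694) measured 4.07, 1.46, 13.8, 1.41 and 3.84 CPM across libraries 1 to 5, labelled WT, and 1.51, 3.93, 1.06 and 1.89 CPM across libraries 6 to 9, labelled KO. Libraries 1, 5 and 7 were close together and library 9 was nearest to the group with high *Vdac2*, 1.25-fold above its highest library. The lowest count behind these values was 36, in library 8.

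*Slc3a2* (ENSMUSG00000010095, chromosome 19 from 8706882 to 8723369) measured 39.1, 24.9, 61.8, 26.1 and 38.8 CPM across libraries 1 to 5 and 25.6, 28.1, 22.1 and 31.7 CPM across libraries 6 to 9. Its levels did not overlap between the sides of *Vdac2*, but the nearest values, 28.1 CPM in library 7 and 26.1 CPM in library 4, differed by 1.08-fold. The separation was wider among the libraries labelled WT, where the nearest values differed by 1.49-fold, than among those labelled KO, where they differed by 1.10-fold. That difference was not tested.

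*Slc7a11* (ENSMUSG00000027737, chromosome 3 from 49892526 to 50443614) had the lowest level of the 9 genes per kilobase of exon. It measured 1.84, 0.146, 2.13, 0.495 and 1.19 CPM across libraries 1 to 5 and 0.133, 0.712, 0.118 and 0.369 CPM across libraries 6 to 9. Libraries 2 and 8 held 4 counts each and library 6 held 5, close to the 3 counts (0.0693 to 0.114 CPM) taken as the smallest level shown, against 79 in library 3 and 56 in library 1. Its levels spanned 15.6-fold between library 1 and library 8, the widest span of the 9 transporters across the 8 libraries other than library 3. The sides overlapped because library 4, with high *Vdac2* and 13 counts, was above library 9, with low *Vdac2* and 16 counts from a deeper library. Within each label the sides did not overlap. The nearest values differed by 2.41-fold among the libraries labelled WT and by 2.79-fold among those labelled KO.

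Of the neutral amino acid exchanger genes, *Slc1a4* was separate between the sides and *Slc1a5* was not. *Slc1a4* (ENSMUSG00000020142, chromosome 11 from 20302180 to 20332713) measured 4.004, 1.61, 18.0, 2.62 and 3.81 CPM across libraries 1 to 5 and 2.31, 4.38, 2.03 and 3.19 CPM across libraries 6 to 9. The libraries with low *Vdac2* lay between 3.19 and 4.38 CPM, above the range of 1.61 to 2.62 CPM with high *Vdac2*, and library 3 was 4.12-fold above the highest of them. *Slc1a5* (ENSMUSG00000001918, chromosome 7 from 16781340 to 16798274) measured 16.4, 14.7, 24.7, 12.3 and 14.1 CPM across libraries 1 to 5 and 14.3, 15.1, 12.2 and 13.5 CPM across libraries 6 to 9. Its sides overlapped overall and within each label.

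Of the glutamine carrier genes, neighbours on chromosome 15, *Slc38a1* was separate and *Slc38a2* was not. *Slc38a1* (ENSMUSG00000023169, 96571418 to 96642913) measured 21.5, 9.87, 37.2, 11.1 and 20.0 CPM across libraries 1 to 5 and 18.3, 21.1, 17.4 and 22.8 CPM across libraries 6 to 9. The low levels were those of libraries 2 and 4, labelled WT, while libraries 6 and 8, labelled KO and also with high *Vdac2*, were close to the libraries with low *Vdac2*, the nearest values differing by 1.09-fold. *Slc38a2* (ENSMUSG00000022462, 96687392 to 96699730) measured 215, 246, 443, 236 and 234 CPM across libraries 1 to 5 and 278, 283, 295 and 297 CPM across libraries 6 to 9. Apart from library 3, every library labelled KO was above every library labelled WT, and *Slc38a2* was the gene among the 9 whose libraries 1 and 5, labelled WT and with low *Vdac2*, were below libraries 2 and 4.

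*Slc7a1* (ENSMUSG00000041313, chromosome 5 from 148327410 to 148399904) measured 59.1, 44.2, 45.2, 47.9 and 59.2 CPM across libraries 1 to 5 and 44.1, 64.5, 39.6 and 36.1 CPM across libraries 6 to 9. Library 9 was the lowest of all, whereas libraries 1, 5 and 7 were the highest. *Slc6a9* (ENSMUSG00000028542, chromosome 4 from 117834506 to 117875198) measured 1.67, 0.951, 2.16, 1.18 and 1.59 CPM across libraries 1 to 5 and 0.849, 1.50, 0.618 and 0.739 CPM across libraries 6 to 9, with library 9 again among the low ones. The exons of *Slc6a9* share 1429 bases with *Ccdc24*, 511 with *Gm17114* and 46 with *B4galt2*, all on the opposite strand. Because the strand setting of the counting is not given in the sources used here, its counts may hold reads of theirs or miss reads from the shared bases. No exon of the other 8 transporters overlapped another gene.

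Taken within each label, which also keeps the lane constant, the libraries with low *Vdac2* were above those with high *Vdac2* in 7 of 9 transporters among the libraries labelled WT (1 and 5 against 2 and 4) and in 5 of 9 among those labelled KO (7 and 9 against 6 and 8). Of all tested genes, 24.5% and 20.7% did so. In both labels at once it held for 5 of 9, the 4 above and *Slc7a11*, against 11.3% of all tested genes. The opposite in both labels held for 0 of 9, against 8.58%.

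**Figure D2:**
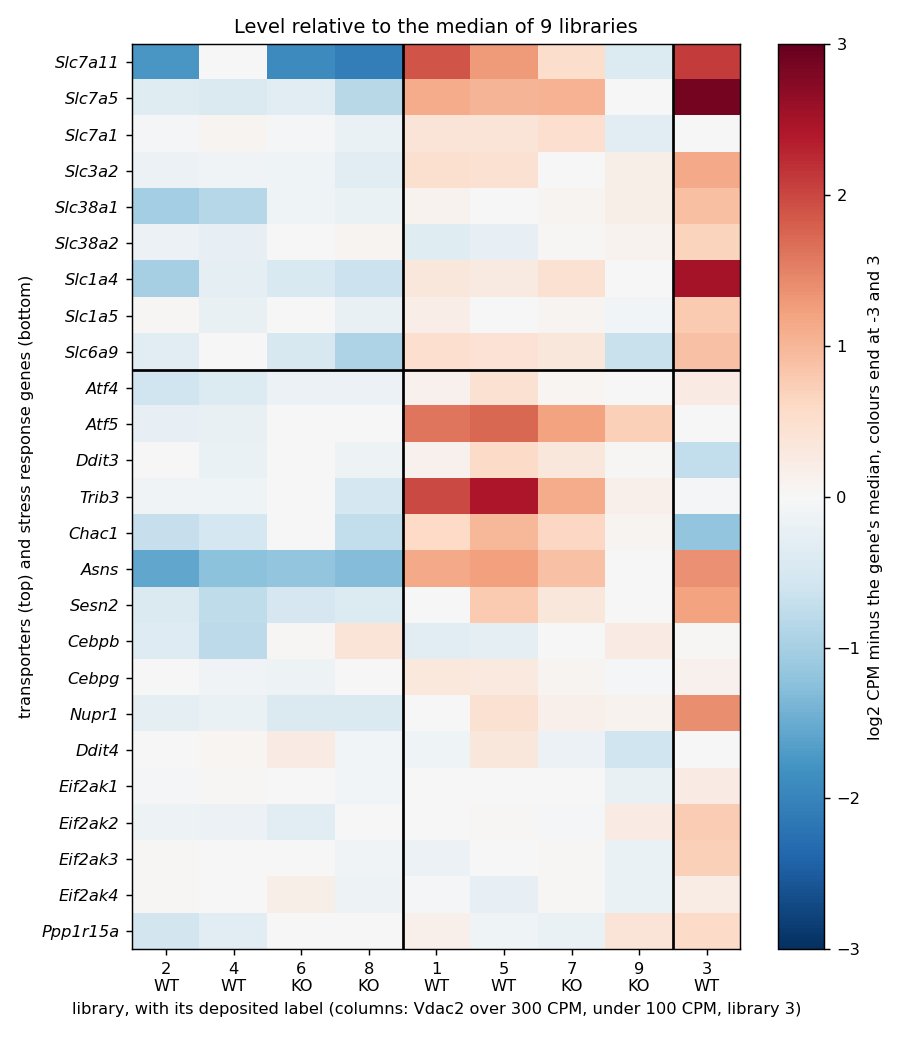
Log2 CPM of the 9 transporters (upper rows) and 16 stress response genes (lower rows) minus each gene's median over the 9 libraries, with columns grouped by the level of *Vdac2* and marked with the deposited label. *Slc7a11*, *Slc7a5* and *Asns* are red in libraries 1, 5 and 7 and in library 3, while in library 9 *Slc7a5* and *Asns* are at their median and *Slc7a11*, at 0.369 CPM, is below it.

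Other genes of the stress response were counted from a list of 16, all tested. Of these, 8 were higher in every library with low *Vdac2* than in every library with high *Vdac2* (*Atf4*, *Atf5*, *Ddit3*, *Trib3*, *Chac1*, *Asns*, *Sesn2* and *Nupr1*) and 0 were lower, against 7.16% and 4.93% of all tested genes. *Asns*, asparagine synthetase, ran from 7.32 to 17.3 CPM with low *Vdac2* and from 2.49 to 3.24 CPM with high *Vdac2*, with 18.8 CPM in library 3. The mRNA of *Atf4* itself ran from 83.1 to 114 CPM against 55.3 to 73.9 CPM. Library 3 was not high for every gene of the list. *Trib3*, a pseudokinase gene induced by ATF4, was at 1.51 CPM there, inside the range of 1.06 to 1.54 CPM of the libraries with high *Vdac2*. *Atf5*, at 11.8 CPM, was also inside their range, which was 10.1 to 11.9 CPM. *Chac1*, which encodes a glutathione-degrading enzyme, was at 2.35 CPM and *Ddit3* at 7.98 CPM, each below all other libraries. The 4 eIF2α kinase genes, *Eif2ak1* to *Eif2ak4*, overlapped.

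A list of 48 names of further amino acid transporters, of which 46 matched the table and 26 were tested, was read in the same way. Here 3 genes were higher in every library with low *Vdac2* (*Slc7a4*, *Slc6a17* and *Slc1a7*), 0 were lower and 23 overlapped, where 7.16% and 4.93% of all tested genes were higher or lower. *Slc7a4* ran from 2.19 to 3.02 CPM against 1.18 to 1.91 CPM, and *Slc6a17* from 4.10 to 5.61 CPM against 2.93 to 3.85 CPM. *Slc1a7* was low, with 0.580 to 0.900 CPM against 0.219 to 0.557 CPM. Library 3 was the highest for 14 of the 26, but for none of these 3. It was at 0.836 CPM for *Slc7a4* and 2.08 CPM for *Slc6a17*, the lowest of the 9 libraries for either gene, and at 0.243 CPM for *Slc1a7*. The counts of the 2 lists were not tested against each other.

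Markers of other cell types were read beside the level of *Vdac2*, against the same 7.16% of all tested genes that were higher in every library with low *Vdac2* and 4.93% that were lower. Of 6 macrophage markers, 3 (*Adgre1*, *Cd68* and *Lyz2*) were higher in every library with low *Vdac2*, and the summed level of all 6 was 448 to 607 CPM there, 266 to 399 CPM with high *Vdac2* and 1439.8 CPM in library 3, with none at 0. Of 6 fibroblast markers, 2 (*Col1a2* and *Tcf21*) were higher, with a summed level over all 6 of 1147 to 1330 CPM against 884 to 1148 CPM, which overlap, and 2858 CPM in library 3. Of 8 cardiomyocyte markers, 0 were higher and 0 lower in every library with low *Vdac2*, and all 8 overlapped. Their sum was 53509 to 62513 CPM with low *Vdac2* and 62578 to 73333 CPM with high *Vdac2*, so the nearest sums were close. Of the other marker lists, 0 endothelial, smooth muscle, erythroid, Schwann and adipocyte markers were higher in every library with low *Vdac2* and 1 endothelial and 1 smooth muscle marker were lower, while *Nppa* and *Myl4* of the 3 atrial markers tested were higher. *Nppa*, which stressed ventricles also express, ran from 157 to 1523 CPM against 72.8 to 104 CPM. In both labels at once, 6 of 6 macrophage, 4 of 6 fibroblast and 2 of 3 atrial markers were higher with low *Vdac2*, against 11.3% of all tested genes. Lower in both labels were 3 of 6 endothelial, 2 of 6 smooth muscle and 2 of 8 cardiomyocyte markers, against 8.58%. In whole tissue, fewer cells of a type and less RNA per cell cannot be told apart, and the part of these cell types in the transporter levels was not tested.

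The comparison the labels give, KO against WT, called none of the transporters. With the quasi-likelihood test of edgeR and adjustment by Benjamini-Hochberg, 9 genes out of 16322 (0.0551%) passed an adjusted p of 0.05, and 0 of the 9 transporters did. Before adjustment 1 of them, *Slc7a11*, was under 0.05, as were 6.11% of all tested genes. With each library left out in turn, that number was 0 without library 1, 5, 6, 8 or 9, beside 508 to 848 genes of 16182 to 16589 tested. It was 3 without library 2, beside 1202 of 16322 genes, and 3 without library 7, beside 912 of 16486. Without library 4 it was 2, beside 1086 of 16282 genes. Without library 3 it was 1, *Slc38a2* instead of *Slc7a11*, beside 1912 of 16251 genes. DESeq2 gave 0 of the 9 after adjustment, beside 62 of its 21708 genes with an adjusted p. Before adjustment it gave 2 of the 9, where 6.97% of those 21708 genes were under 0.05. The label and the level of *Vdac2* divide the libraries differently, so this test says nothing about the pattern above. The labels do not name the animal behind each library, and p-values measure the spread between these libraries.

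The largest label estimate was that of *Slc7a11*. Its mean was 1.16 ± 0.848 CPM under the label WT (SD, n = 5) and 0.333 ± 0.278 CPM under the label KO (SD, n = 4). The log2 ratio of KO to WT was -1.79 (standard error 0.77), and edgeR gave an adjusted p = 0.68. For *Slc7a5* the means were 4.92 ± 5.14 and 2.10 ± 1.27 CPM and the log2 ratio was -1.23 (standard error 0.72, adjusted p = 0.68). For *Slc1a4* they were 6.01 ± 6.78 and 2.97 ± 1.06 CPM and the log2 ratio was -1.02 (standard error 0.67, adjusted p = 0.68). Several estimates were smaller without library 3, at -0.37 for *Slc7a5* and -0.027 for *Slc1a4*, while that of *Slc7a11* was -1.46. The log2 ratio was -0.71 for *Slc6a9* (standard error 0.33) and -0.51 for *Slc3a2* (standard error 0.26), each with an adjusted p of 0.68, and without library 3 that of *Slc3a2* was -0.27. The other 4 genes lay between -0.26 for *Slc1a5*, which was -0.071 without library 3, and 0.069 for *Slc38a2*, with adjusted p from 0.69 to 0.995. Without library 3 the log2 ratio of *Slc38a2* was 0.30 (standard error 0.068, adjusted p = 0.11 from edgeR) and that of *Slc38a1* went from -0.0061 to 0.34. The median over the 9 transporters was -0.51, beside -0.018 over all tested genes, and without library 3 it was -0.20 beside 0.0030.

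**Figure D3:**
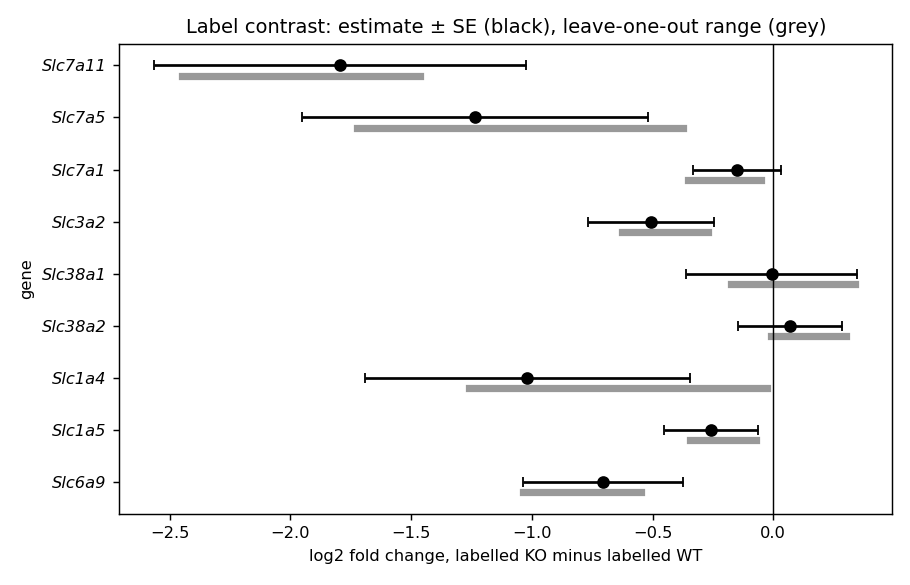
Log2 ratio of each transporter gene between libraries labelled KO and WT (horizontal axis), with the estimate and its standard error in black and the range over fits that leave out each library in turn in grey. *Slc7a11* is farthest from 0 at -1.79, and the grey bars of *Slc38a1* and *Slc38a2* cross 0.

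Levels of different genes were compared per kilobase of exon (RPKM, from the exonic length of GENCODE M21). That length joined the exons of all annotated transcripts of a gene, from 3529 bases for *Slc3a2* to 17236 for *Slc38a1*. Which transcripts were expressed was not determined, so the order of the genes depends on this choice of length. *Slc38a2* was the most abundant in every library, with a median of 31.4 RPKM (24.3 to 50.2), followed by *Slc3a2* with 7.96 RPKM (6.27 to 17.5). *Slc7a1* (median 3.92, 3.13 to 5.59 RPKM) and *Slc1a5* (median 3.43, 2.92 to 5.93 RPKM) overlapped, as did *Slc38a1* (1.16), *Slc1a4* (0.811) and *Slc7a5* (0.510). *Slc6a9* (0.229) and *Slc7a11* (0.0355) came last. The heavy chain gene *Slc3a2* was above each of 5 genes for its light chains in all 9 libraries. Of these, *Slc7a6* was the highest at 2.17 to 6.26 RPKM, whereas *Slc7a5* ran from 0.286 to 3.73 RPKM and *Slc7a11* from 0.00845 to 0.153 RPKM.

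**Figure D4:**
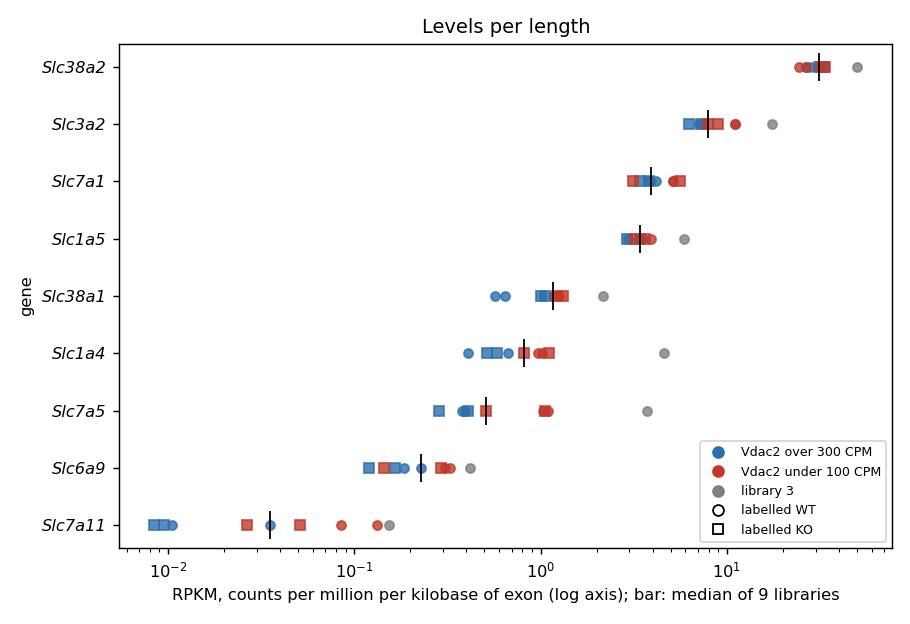
RPKM (horizontal log axis) of each transporter gene in the 9 libraries, ordered by the median, which is drawn as a bar. *Slc38a2* lies at 24.3 RPKM or more and *Slc7a11* at 0.153 RPKM or less, and the grey point of library 3 is the rightmost for every gene except *Slc7a1*.

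*Slc7a11* varied most among the 9 transporters, with an SD of 1.51 on the log2 CPM scale over the 8 libraries other than library 3. It held 4, 5 and 4 counts in libraries 2, 6 and 8, so counting error enters this SD and the correlations with it. The tested genes whose log2 CPM followed it most closely over those 8 libraries, leaving out the transporters, were *Timp2* (Pearson r = 0.976), *Traf1* (0.970), *Elf4* (0.969), *Chp2* (0.965) and *Bicc1* (0.962), among 16308 genes ranked. *Timp2*, a metalloproteinase inhibitor gene, measured 73.5, 48.1, 76.0, 52.9 and 63.8 CPM across libraries 1 to 5 and 43.1, 59.2, 40.9 and 51.5 CPM across libraries 6 to 9. Among the transporters themselves, r with *Slc7a11* over the same libraries was 0.884 for *Slc7a5*, 0.883 for *Slc3a2* and -0.62 for *Slc38a2*. The 8 points share 2 lanes and the 2 sides of *Vdac2*, and the values are given as a description.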

How the data were processed

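The authors aligned reads of ribosome-depleted, stranded total RNA libraries to GRCm38 and deposited raw counts per Ensembl gene, without normalization. The submitters' processing notes name STAR 2.7.2c and featureCounts 1.6.3. The strand setting and annotation release are not given in the sources used here. A WT sample was set aside by the authors for poor RNA quality without being named. All 9 libraries were used here, and their columns were matched to samples by library number, and 52403 of 52636 identifiers had a symbol. No 2 libraries agreed within sampling noise (lowest chi-square per degree of freedom 4.87).

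The counts were fitted with edgeR 4.0.16 (R 4.3.3), using filterByExpr, TMM and the robust quasi-likelihood test, labelled KO against labelled WT over all tested genes. The fit was tested on simulated data. That simulation used a dispersion (spread between libraries beyond counting error) below the 0.0994 fitted to these data, and it held no outlying library. Standard errors were taken as the size of the log2 ratio over the root of its F statistic. Floors of 3 counts cover counting error only. The genes named were the 9 transporters, *Vdac2*, members of 3 further lists and of marker lists, and the 5 genes most like the most variable transporter. Members and lists were chosen with earlier results of these data known, and the promoter motifs were chosen after seeing the data. Marker lists for endothelial, smooth muscle, erythroid, Schwann, adipocyte and atrial cells were also computed. Alternatives were DESeq2 1.42.0, RLE and total-count scaling, no low-count filter, and leaving out each library.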

Additional observations from a re-analysis of the deposited data

Results flagged for a closer look

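Within a label, a library was marked where its gap to the nearest library, divided by the range of the label, passed Dixon's 95% critical value. Of 20 such groups (9 transporters and *Vdac2* under 2 labels), 3 were marked, and chance marks about 1 in 20. The share of all tested genes that this rule marks was not computed. All 3 marks were library 3 among those labelled WT, so they are not independent of each other. Library 3 was above all other libraries for 37.7% of all tested genes. It was at 13.8 CPM for *Slc7a5*, where the next library was at 4.07 CPM, at 443 CPM for *Slc38a2*, where the next was at 246 CPM, and at 18.0 CPM for *Slc1a4*, where the next was at 4.004 CPM.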

How the results depend on the processing

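The 4 transporters that were separate between the sides of *Vdac2* stayed 4, the same genes, under RLE or total-count scaling. The same held with library 3 counted among the low libraries and without the low-count filter. Of all tested genes, 6.73% were higher and 5.46% lower under RLE scaling, and 11.3% and 2.65% under total-count scaling. With library 3 on the low side these shares were 5.98% and 4.41%, and without the filter 4.19% and 2.75%. The number was 7 in the libraries labelled WT alone (1 and 5 against 2 and 4), where 24.5% of all tested genes were higher. With each library left out in turn, a choice made after seeing the data, the number ran from 4 to 7, the highest without library 9. The share of all tested genes that were higher ran from 7.16% to 9.91%. Under the labels, 0 of the 9 transporters passed in any alternative, while over all genes 62 of 21708 passed with DESeq2. With each library left out, the count over all genes was lowest at 5 of 16281 to 16322 (without library 1, 2 or 4). It was highest at 62 of 16251 (without library 3). The cause was not tested. The log2 fold change of *Slc38a1* changed sign to 0.024 without the low-count filter and ran from -0.18 to 0.34 with each library left out, and that of *Slc38a2* ran from -0.0084 to 0.30. Depth limits *Slc7a11* most, with 4 counts in the lowest libraries.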

Other observations

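Glutathione genes, which act downstream of the cystine that xCT brings in, were counted from a list of 8, of which 7 were tested. Only *Gclc*, the catalytic subunit of the rate-limiting ligase, and *Gpx4*, a glutathione peroxidase that reduces lipid peroxides, were higher in every library with low *Vdac2* than in every library with high *Vdac2*, and 0 were lower, beside 7.16% and 4.93% of all tested genes. *Gclc* ran from 18.8 to 20.0 CPM against 16.6 to 17.8 CPM, and *Gpx4* from 81.3 to 95.4 CPM against 56.8 to 77.4 CPM. Library 3 was the highest for *Gclc*, at 22.3 CPM, and the lowest for *Gpx4*, at 47.9 CPM. *Gclm*, the regulatory subunit, overlapped because of library 9, which was at 21.9 CPM.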
